A study of Arabidopsis thaliana with 5 samples.

Results

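The genes described here are 10 loci of Arabidopsis thaliana that carry out or control iron uptake in the root. They were chosen by locus from what is known of the pathway, with earlier results of these data known. They are 10 of the 33602 loci in the deposited tables. They comprise the transporter IRT1, the reductase FRO2, the transcription factors FIT, PYE, bHLH38, bHLH39 and bHLH100, the ubiquitin ligase BTS, and the nicotianamine synthases NAS1 and NAS2. Their RNA was measured in smr1 mutants and in the wild type Col-0, in nuclei that were sorted for GFP from root tips of 0.5 cm, cut from seedlings of 5 days. Plants of both groups carried SMR1:GUS-GFP, a reporter driven by the SMR1 promoter, so the libraries represent cells in which that promoter was active and not the whole root tip. SMR1 encodes an inhibitor of cyclin-dependent kinases that promotes endoreplication. There were 3 smr1 libraries, numbered 1, 2 and 4 in the labels, and 2 Col-0 libraries, numbered 2 and 4, each from 120000 nuclei. Seedlings grew on agar with MS medium at reduced strength, and no iron treatment is named in the labels.

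Arabidopsis takes up iron by reduction. The root epidermis acidifies the soil with the proton pump AHA2, FRO2 reduces ferric to ferrous iron at the plasma membrane, and IRT1 imports it. FIT, a basic helix-loop-helix (bHLH) factor, activates FRO2 and IRT1 together with the group Ib factors bHLH38, bHLH39, bHLH100 and bHLH101. The Ib genes are switched on by the group IVc factors and bHLH121 when iron is scarce. BTS and its relatives BTSL1 and BTSL2 are hemerythrin-containing E3 ligases that restrain the response, and PYE is a repressor that acts on genes of iron transport inside the plant. NAS enzymes make nicotianamine, a chelator that keeps iron mobile.

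Upstream sequences of 3 members are shown because each holds CACGTG, the G-box bound by many bHLH factors, and because the gene with the most copies was abundant while the other two were at or near 0 reads. Each window covers the 250 bases before the gene's annotated start, read 5′ to 3′ on the gene's strand from the RefSeq genome TAIR10.1, with every CACGTG in capitals. The BTS window is chr3:6273716-6273965 on the plus strand, the bHLH38 window is chr3:21085246-21085495 on the minus strand, and the bHLH100 window is chr2:17199455-17199704 on the minus strand.
BTS: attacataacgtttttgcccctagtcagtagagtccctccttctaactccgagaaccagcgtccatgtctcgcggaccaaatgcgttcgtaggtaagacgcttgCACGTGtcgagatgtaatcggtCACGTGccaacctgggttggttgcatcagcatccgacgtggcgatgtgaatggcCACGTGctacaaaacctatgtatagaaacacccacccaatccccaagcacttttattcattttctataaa
bHLH38: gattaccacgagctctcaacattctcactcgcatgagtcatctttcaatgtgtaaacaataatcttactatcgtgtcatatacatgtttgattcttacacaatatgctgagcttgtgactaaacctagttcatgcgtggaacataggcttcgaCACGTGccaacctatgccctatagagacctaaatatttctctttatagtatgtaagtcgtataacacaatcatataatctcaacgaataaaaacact
bHLH100: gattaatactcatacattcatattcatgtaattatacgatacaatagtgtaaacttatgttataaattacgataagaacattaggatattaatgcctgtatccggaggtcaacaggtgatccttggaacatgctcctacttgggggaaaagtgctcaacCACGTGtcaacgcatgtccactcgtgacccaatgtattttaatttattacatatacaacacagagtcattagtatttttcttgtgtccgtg
CACGTG reads the same on both strands. The BTS window held 3 copies, whose first bases lay 146, 124 and 70 bases upstream of the gene. The copy lay 97 bases upstream in bHLH38 and 91 bases upstream in bHLH100. The motif was found in 3 of 10 members, against 1780 of 27443 windows of all nuclear protein-coding genes (6.5%). The windows of FIT, the most abundant member, and of IRT1, which had no reads, held no copy. A relation between copies and level was not tested. A match is a string of letters and not a measured binding site.

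FIT was the most abundant member, while IRT1, which it activates, had no reads and FRO2 had few. Levels between genes are compared in TPM, the deposited abundance that is scaled for transcript length and summed here over the models of a locus. FIT (AT2G28160, chr2:12004658-12006276, up to 5 exons) had 77.8, 88.6 and 92.5 TPM in smr1 replicates 1, 2 and 4, against 72.5 and 86.0 TPM in Col-0 replicates 2 and 4. It ranked 2076 by mean TPM among all loci, and the genotypes overlapped. BTS (AT3G18290, chr3:6273966-6280562, up to 14 exons) had 22.4, 24.0 and 21.1 TPM in smr1, against 28.9 and 26.3 TPM in Col-0. The level of FIT was between 2.50 and 4.38 times that of BTS within a library, so their order was the same in all 5.

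PYE (AT3G47640, chr3:17567126-17569394) stood well below these genes, at 5.41, 7.22 and 5.62 TPM in smr1 and 8.03 and 5.23 TPM in Col-0. Its 3 models have the same coding length, 723 nt, and their reads were divided evenly, so the models are not separate measurements. NAS2 (AT5G56080, chr5:22711141-22712441, 1 exon) came next, with 0.666, 0.994 and 1.24 TPM in smr1, against 0.520 and 0.732 TPM in Col-0. No other member reached 0.5 TPM in any library. Below NAS2 the order of bHLH39, bHLH38, FRO2 and NAS1 was not resolved, because their ranges over libraries overlapped.

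IRT1 (AT4G19690, chr4:10707344-10709015, up to 3 exons) had 0 reads in all 3 smr1 libraries and in both Col-0 libraries, on each of its 2 models. bHLH100 (AT2G41240, chr2:17198037-17199454) likewise had 0 reads in every library. With 24918795 to 26823753 reads per library, a count of 0 allows up to 3 reads, which is 0.110 to 0.123 CPM (the read count scaled by library size and TMM factor), for counting error only. These values are as the tables list them, and whether the rows had reads before deposit cannot be read from the tables. Of all loci, 7051 (21.0%) had 0 reads in all 5 libraries.

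FRO2 (AT1G01580, chr1:208995-213082, up to 8 exons) had 11, 10 and 15 reads in smr1, against 9 and 5 reads in Col-0. Per length, FIT stood between 517 and 1440 times above FRO2 within a library. bHLH38 (AT3G56970, chr3:21084035-21085245) had 2, 5 and 3 reads in smr1 and 2 and 10 reads in Col-0. Its neighbour bHLH39 (AT3G56980, chr3:21086390-21087710), 1144 bases away on the same strand, had 1, 4 and 7 reads in smr1, against 9 and 6 reads in Col-0. NAS1 (AT5G04950, chr5:1457641-1459039) had 3, 1 and 2 reads in smr1 and 3 and 0 reads in Col-0. The libraries of the 2 genotypes overlapped in bHLH38, bHLH39 and NAS1, and these counts are too low to show a difference at this depth.

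**Figure D1:**
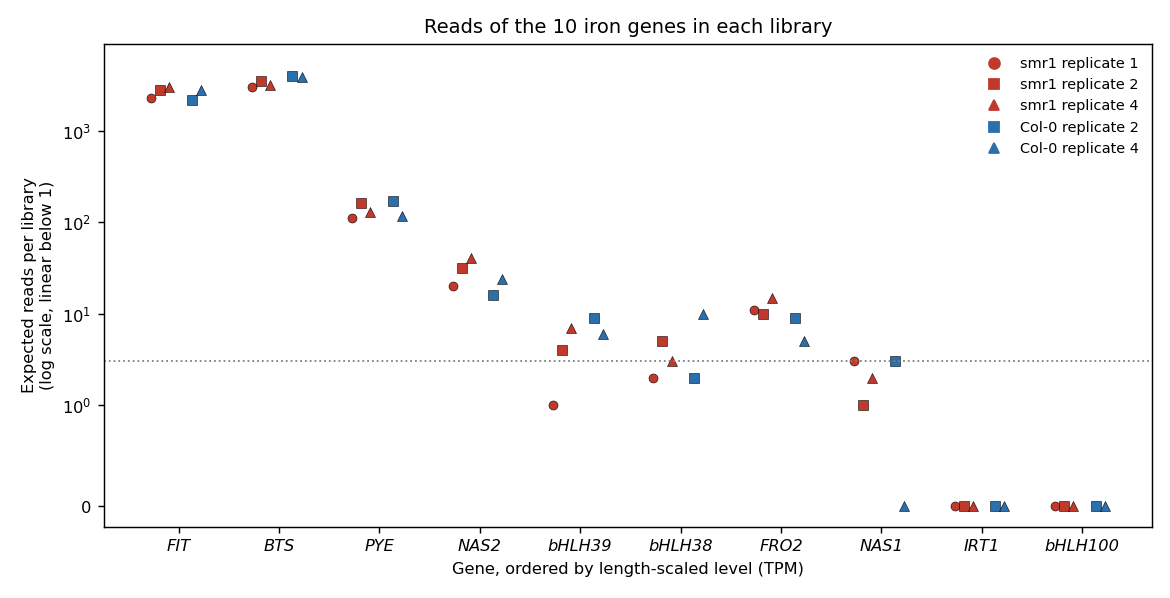
Expected reads of each of the 10 genes in each library, on a log axis that is linear below 1, with smr1 libraries (red) left of Col-0 libraries (blue) and replicate numbers as marker shapes. The dotted line marks 3 reads. FIT and BTS lie highest in every library, and IRT1 and bHLH100 lie at 0 in every library.

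Some of these genes are related in sequence. The coding sequences of NAS1 and NAS2 were 83.0% identical, with a longest shared run of 49 nt, and those of bHLH38 and bHLH39 were 83.1% identical, with a longest shared run of 34 nt. IRT1 and its relative IRT2 were 72.9% identical and shared at most 22 nt. The expected reads of NAS1, NAS2, bHLH38 and bHLH39 were whole numbers in every library. Whether reads were shared within the NAS and Ib pairs was not tested.

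Some regulators upstream of the Ib factors had levels around that of FIT. The IVc factors bHLH115 and ILR3 had 90.1 to 111 TPM and 73.2 to 78.5 TPM in smr1, against 103 to 107 TPM and 67.0 to 77.3 TPM in Col-0. bHLH104 had 26.3 to 30.9 TPM in smr1, against 30.7 to 33.9 TPM in Col-0. bHLH34 was lower, with 3.26 to 3.35 TPM in smr1 and 2.83 to 3.996 TPM in Col-0, and bHLH121 had 19.9 to 24.0 TPM in smr1 and 19.2 to 21.7 TPM in Col-0. The remaining Ib gene bHLH101 had 1 read in each smr1 library, against 1 and 6 reads in Col-0. MYB72, a factor of iron-limited roots that FIT activates, had at most 3.5 reads in any library.

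Other genes of iron uptake and transport spanned the range between 0 reads and levels above that of FIT. AHA2 had 822 to 955 TPM in smr1 and 769 to 820 TPM in Col-0, the highest level among the 64 iron genes examined. IRT2 had 1.14, 1.98 and 1.78 TPM in smr1 and 2.07 and 1.14 TPM in Col-0, between 7.88 and 19.0 times the level of FRO2. FRO3, a reductase of the vasculature and mitochondria, had 21.9 to 34.5 TPM in smr1, against 21.8 to 32.1 TPM in Col-0. NAS4 had 0.245 to 0.361 TPM in smr1 and 0.0901 and 0.288 TPM in Col-0, and the phloem iron transporter OPT3 had 1.99 to 3.71 TPM in smr1 and 2.40 to 2.57 TPM in Col-0. The list for coumarins, which roots secrete when iron is scarce, held 5 genes, all named after their values were seen. Over all 5 libraries, F6H1 had 29.2 to 50.6 TPM, PDR9 222 to 294 TPM and BGLU42 7.23 to 9.88 TPM. The enzymes S8H and CYP82C4 of this list had 0 reads in every library. The peptides IMA1, IMA2 and IMA3 were also at 0 reads, but their models measure only 153, 153 and 144 nt. Of 1892 loci with models under 200 nt, 1067 (56.4%) had 0 reads in all libraries, beside 21.0% of all loci.

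The iron store ferritin FER1 had 84.8, 114 and 54.3 TPM in smr1, against 166 and 68.4 TPM in Col-0, on both sides of the level of FIT. Of the 54 other iron genes in the lists, 8 had 0 reads throughout and 18 had at most 10 reads in every library. Among the 10 members these counts were 2 and 5, and over all 33602 loci they were 7051 and 12848.

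**Figure D2:**
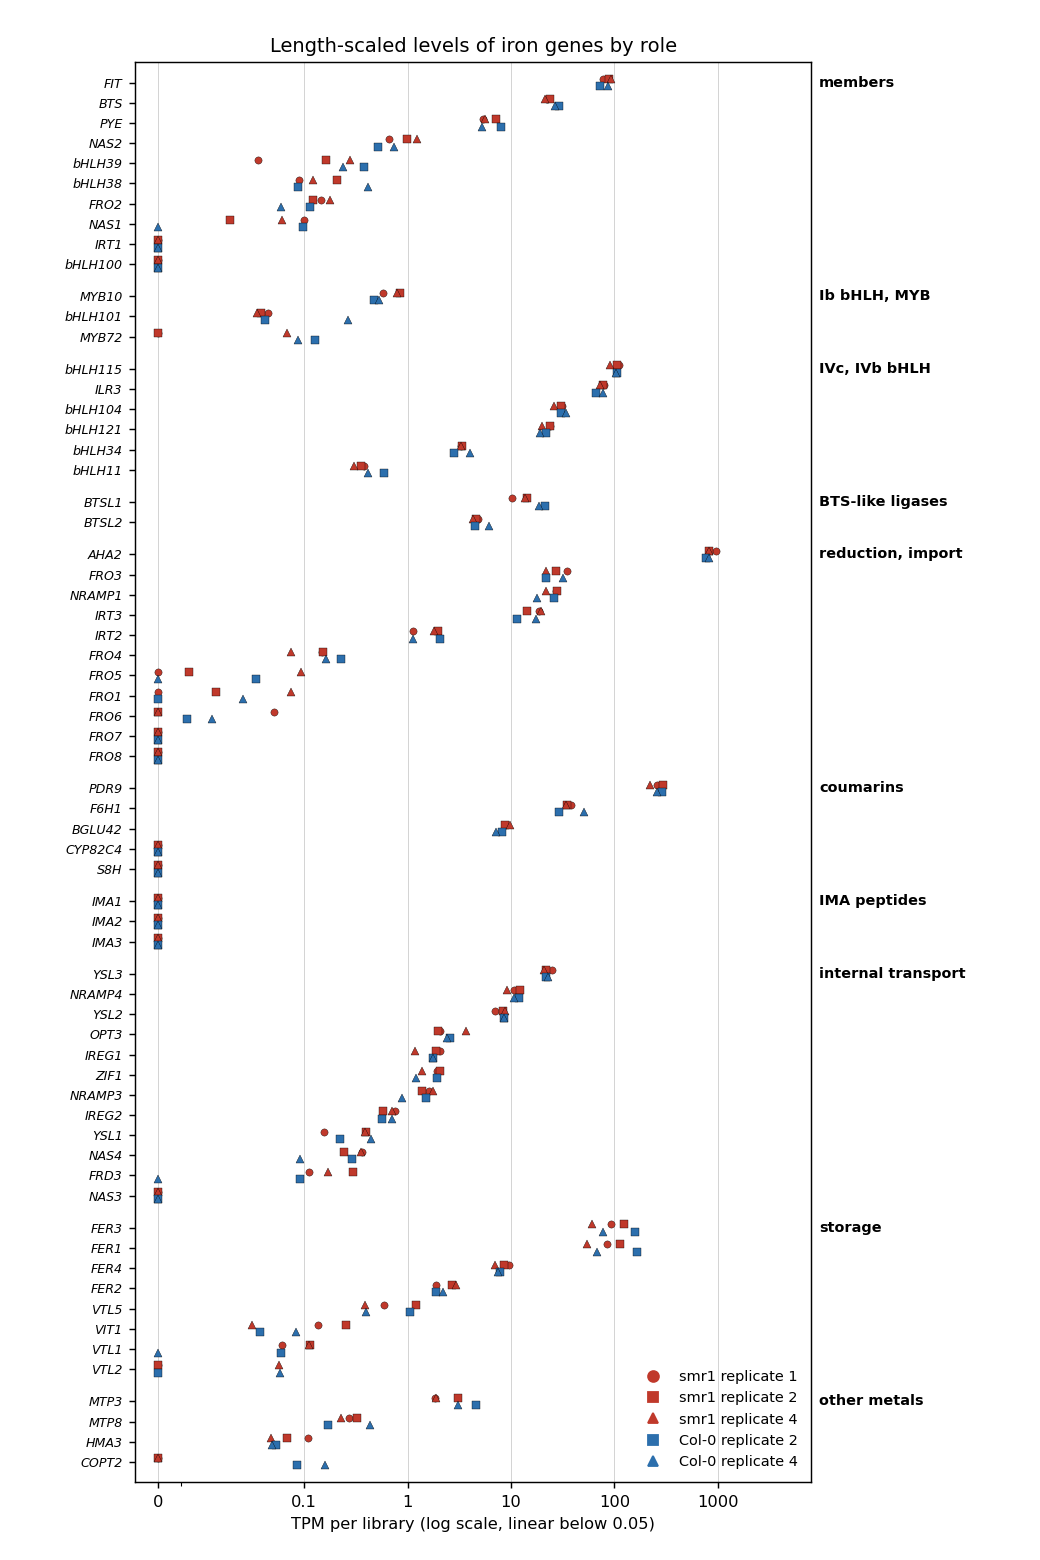
TPM of the 10 members and 54 other iron genes in each library, grouped by role, on a log axis that is linear below 0.05, with smr1 (red) above Col-0 (blue) in each row. FIT lies between 72.5 and 92.5 TPM, while IRT1, bHLH100, S8H, CYP82C4 and the IMA peptides lie at 0.

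The labelled tissue was checked against root markers. Markers of non-hair epidermis were high, with summed levels of 223 to 242 CPM in smr1 and 183 to 204 CPM in Col-0, and the 4 xylem markers summed to 771 to 897 CPM in smr1 and 954 to 987 CPM in Col-0. The 6 root hair markers summed to 15.1 to 24.8 CPM in smr1 and 20.2 to 32.8 CPM in Col-0. The cortex marker CO2 was at or near 0, with at most 0.156 CPM in any library. Over all 5 libraries, endodermis markers summed to 13.2 to 20.55 CPM and phloem markers to 10.05 to 30.85 CPM. The stele marker SHR had 9.82 to 20.3 CPM. Root cap markers summed to 3.56 to 5.07 CPM, and meristem markers to 1.725 to 7.11 CPM. The lists differ in size and CPM is not scaled for transcript length, so these sums compare cell types only roughly. Transcripts of shoot photosynthesis, LHCB1.1 and RBCS1A, summed to 5.32 and 6.70 CPM in smr1 replicates 1 and 2, against 0.404 CPM in smr1 replicate 4 and 0.534 and 0.337 CPM in Col-0. SMR1 itself had 6.02, 4.70 and 7.06 CPM in smr1 and 10.97 and 21.6 CPM in Col-0, so it was lower in every smr1 library. Its log2 fold change was -1.46, which DESeq2 called lower (adjusted p = 0.0124) and edgeR and limma voom did not (adjusted p = 0.725 and 0.738).

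Between the genotypes, no member passed the test. Expression was compared with edgeR's quasi-likelihood test over the 20151 genes that passed its filter on low counts, at a Benjamini-Hochberg adjusted p of 0.05, and fold changes are smr1 over Col-0. Of the 10 members, 5 passed the filter, namely FRO2, FIT, BTS, PYE and NAS2. Over all genes 1 was called higher (0.00496%) and 0 lower (0.0%), and without adjustment 798 (3.96%) and 583 (2.89%) had a p under 0.05 in these directions. DESeq2 called 30 genes higher (0.165%) and 12 lower (0.0659%) of the 18197 to which it gave an adjusted p, and limma voom called 0, with no iron gene among the calls of any of the 3 tools. DESeq2 gave FRO2 no adjusted p. Without adjustment, BTS alone of the 5 members had a p under 0.05. In sorted nuclei, fewer cells of a type and less RNA per cell cannot be told apart.

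All smr1 libraries had less BTS than the Col-0 libraries. BTS stood at 120, 130 and 116 CPM in smr1 replicates 1, 2 and 4, against 167 and 148 CPM in Col-0 replicates 2 and 4. The means were 122 ± 6.98 CPM in smr1 (SD, n = 3) and 157 ± 13.4 CPM in Col-0 (SD, n = 2). The log2 fold change, -0.37 ± 0.11 (standard error, SE), had an unadjusted 95% interval from -0.62 to -0.11. It missed the threshold (edgeR adjusted p = 0.725). Of all genes tested, 2045 (10.1%) were lower in each smr1 library than in both Col-0 libraries, and 2753 (13.7%) were higher. Of the 5 members tested, 1 was lower and 1 was higher in this sense.

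FIT did not separate the genotypes, with 90.7, 105 and 112 CPM in smr1, against 91.0 and 105 CPM in Col-0. The lowest and the highest value were both from smr1. It had a log2 fold change of 0.06 (SE 0.13) and a 95% interval from -0.24 to 0.37 (edgeR adjusted p = 0.937). PYE had 4.42, 5.995 and 4.78 CPM in smr1 and 7.07 and 4.46 CPM in Col-0, so its libraries overlapped. Its log2 fold change was -0.18, with an interval from -0.80 to 0.43 (edgeR adjusted p = 0.904), and it was 0.18 without Col-0 replicate 2.

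NAS2 had 20, 32 and 41 reads in smr1, against 16 and 24 reads in Col-0. Its log2 fold change was 0.57 with an interval from -0.35 to 1.49 (edgeR adjusted p = 0.777). FRO2 was the member above Col-0 in every smr1 library, at 0.430, 0.370 and 0.552 CPM in smr1, against 0.370 and 0.188 CPM in Col-0. The closest libraries, both of replicate 2, had 10 reads in smr1 and 9 reads in Col-0. Its log2 fold change was 0.70, and the interval from -0.48 to 1.88 shows how little these counts resolve (edgeR adjusted p = 0.788). The median log2 fold change of the 5 members tested was 0.06, beside 0.01 over all genes tested.

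The relatives of BTS lay in the same direction. BTSL1 had 54.7, 78.4 and 74.9 CPM in smr1, against 123 and 105 CPM in Col-0, and the libraries did not overlap. Such a separation, with smr1 lower, was found in 10.1% of all genes tested. The log2 fold change of BTSL1, -0.72 ± 0.17 (SE), had an interval from -1.13 to -0.30 (edgeR adjusted p = 0.725). BTSL2 had 25.5, 25.02 and 23.7 CPM in smr1, against 26.0 and 34.6 CPM in Col-0. Its log2 fold change was -0.29 with an interval from -0.65 to 0.06 (edgeR adjusted p = 0.729), and it was -0.08 without Col-0 replicate 4. BTSL1 and BTSL2 were 76.0% identical in coding sequence with a longest shared run of 38 nt, while BTS was 53.3% and 54.2% identical to BTSL1 and BTSL2.

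Several root markers also separated the genotypes. Of the 26 markers 25 were tested and none passed, while 7 were higher and 5 lower in all smr1 libraries. Of all genes tested, 13.7% were higher and 10.1% lower in this sense. The secondary wall cellulose synthases CESA4, CESA7 and CESA8, which make up most of the xylem sum given above, were lower, with log2 fold changes of -0.26, -0.19 and -0.28. The fourth xylem marker, the vessel regulator VND7, was higher in every smr1 library, at 15.96, 16.02 and 19.3 CPM in smr1, against 14.99 and 15.7 CPM in Col-0. GL2 and WER, regulators of non-hair epidermis, were higher, with log2 fold changes of 0.27 and 0.36. Root cap genes BRN1 and BRN2 were higher as well, with 0.38 and 0.45, while SMB of that list overlapped, at 0.02. The stem cell regulators PLT1 and PLT2 were higher too, with 0.84 and 1.41, at no more than 2.33 CPM in any library. The remaining marker of their list, WOX5, went the other way, at -0.47, and its libraries overlapped. The root hair genes EXPA18 and RHD6 were lower, with -0.70 and -0.19. Libraries overlapped for the rest of the root hair list, COBL9, LRX1, EXPA7 and RSL4, at -0.02, -0.17, -0.41 and -0.51. The photosynthesis transcripts were higher in smr1 replicates 1 and 2 alone. The part of these markers in the ligase values was not tested. With smr1 replicate 4 as the one smr1 library, log2 fold changes were -0.44 for BTS, -0.61 for BTSL1 and -0.355 for BTSL2. That fit was chosen after seeing the data, rests on 1 smr1 library, and does not test the part of the markers.

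**Figure D3:**
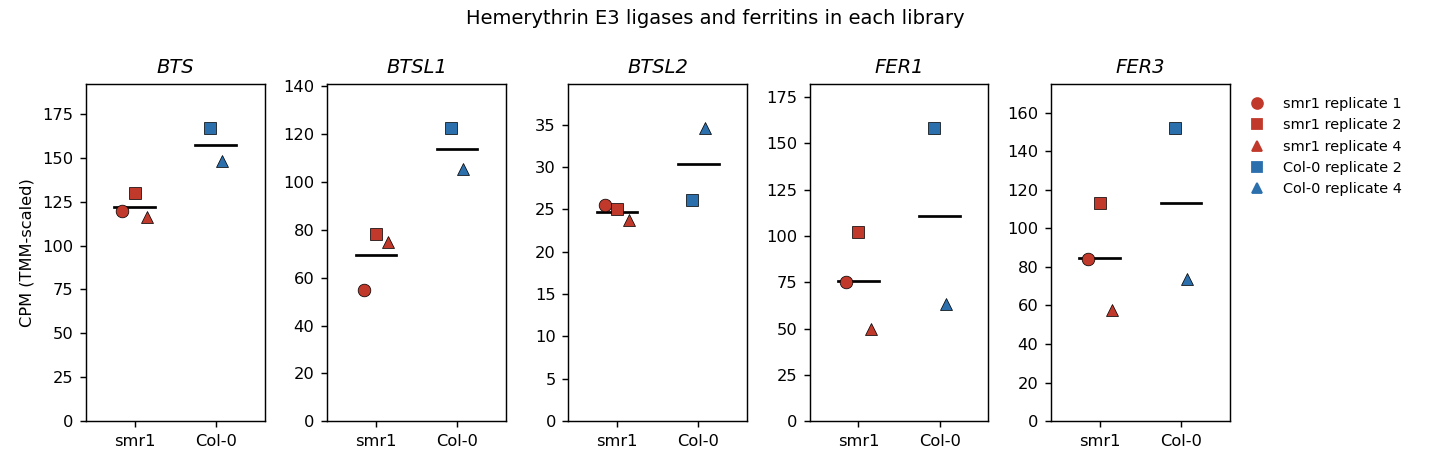
TMM-scaled CPM of BTS, BTSL1, BTSL2, FER1 and FER3 in each library, smr1 left of Col-0, with replicate numbers as marker shapes and a black line at each group mean. All 3 ligases lie lower in every smr1 library, as do 10.1% of all genes tested, and none of the 3 passed the test. For BTSL2 the closest libraries are at 25.5 CPM in smr1 and 26.0 CPM in Col-0. FER1 and FER3 are highest in the replicate 2 library of each genotype.

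FER1 and FER3 differed more between libraries of 1 genotype than between the genotypes. FER1 had 75.0, 102 and 49.96 CPM in smr1 replicates 1, 2 and 4, against 158 and 63.2 CPM in Col-0 replicates 2 and 4. FER3, a second ferritin named after its values were seen, had 83.9, 113 and 57.4 CPM in smr1 and 152 and 73.9 CPM in Col-0. At replicate 2 and at replicate 4, smr1 was below Col-0 for both genes. In each genotype replicate 2 was the highest and replicate 4 the lowest for both genes. Col-0 had only 2 libraries, so 1 of them had to be the highest, here and for the genes below. The stem cell niche marker WOX5 was also highest in replicate 2 of each genotype, at 3.96 CPM in smr1 and 4.56 CPM in Col-0, against 0.625 to 0.978 CPM in the other libraries. The log2 fold changes were -0.55 for FER1 and -0.41 for FER3 (edgeR adjusted p = 0.811 and 0.834), and they turned to 0.26 and 0.19 without Col-0 replicate 2. The other ferritins, FER2 and FER4, did not share this order. FER2 had 1.64, 2.41 and 2.68 CPM in smr1, against 1.77 and 2.03 CPM in Col-0, and was highest in replicate 4 of each genotype. FER4 had 8.64, 7.81 and 6.54 CPM in smr1, against 7.60 and 7.05 CPM in Col-0. Their log2 fold changes were 0.24 and 0.07, and neither passed the test.

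Of the 54 other iron genes, 35 were tested. None passed, while BTSL1 and MTP3 had a p under 0.05 without adjustment. Of the 35, 13 had positive and 22 negative log2 fold changes, and the values ran from -0.83 to 0.70 with a median of -0.06. Without overlap between genotypes, 7 of the 35 were lower in smr1 and 1 was higher, beside 10.1% and 13.7% of all genes. The lowest value belonged to MTP3, a vacuolar zinc transporter of iron-limited roots named after its values were seen. It had 71, 127 and 81 reads in smr1 and 183 and 130 reads in Col-0, with a log2 fold change of -0.83 (edgeR adjusted p = 0.725). That value was -0.49 without Col-0 replicate 2 and -0.29 (SE 1.45) on the first model alone, and in both of these BTSL1 was lower, at -0.61 and -0.72. The highest belonged to NAS4, from 3 to 12 reads per library.

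The regulators upstream of the Ib genes did not pass the test either. The IVc factors had log2 fold changes of -0.11 for bHLH34, -0.21 for bHLH104, 0.02 for ILR3 and -0.09 for bHLH115, and bHLH121 had 0.08. The 95% intervals of these 5 genes ran from -0.60 to 0.40. For ILR3, the 62.1, 62.1 and 60.3 CPM of smr1 lay inside the 57.0 and 63.9 CPM of Col-0. bHLH104 had 31.0, 30.9 and 27.5 CPM in smr1, below the 33.2 and 35.7 CPM of Col-0, and did not pass (edgeR adjusted p = 0.742). AHA2 had a log2 fold change of 0.06, FRO3 of -0.02, IRT2 of -0.06 and OPT3 of -0.01.

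**Figure D4:**
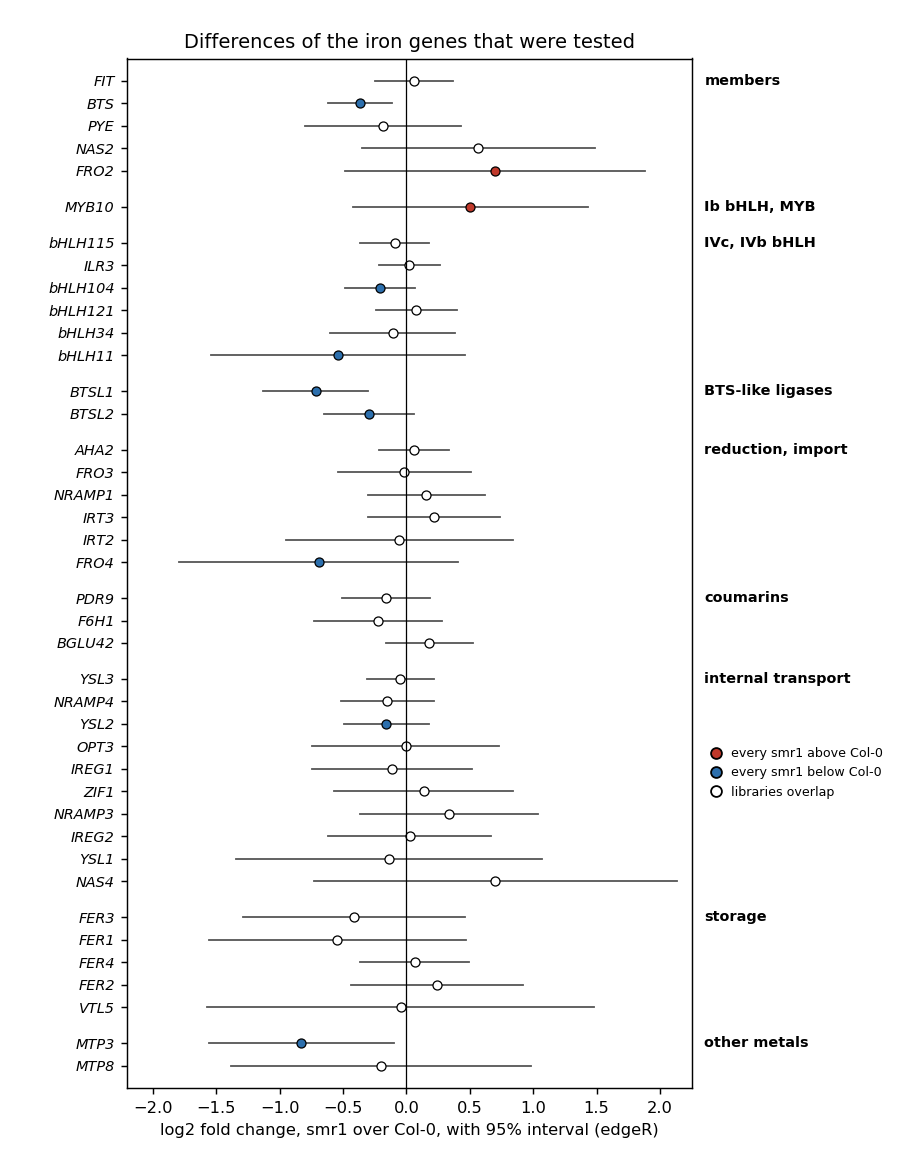
Log2 fold change of smr1 over Col-0 with its unadjusted 95% interval for the 5 members and 35 other iron genes tested, grouped by role. Filled points mark genes whose libraries did not overlap, and BTS, BTSL1 and MTP3 are the 3 genes whose interval excludes 0.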

How the data were processed

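RNA of nuclei sorted by GFP was measured in 3 smr1 and 2 Col-0 libraries, which the series' design text calls biological replicates. The deposited expected counts and the deposited TPM values were made by the authors for 41671 transcript models, with Salmon's column names, per the file headers. The submitters' processing notes name CASAVA, Salmon 0.7.2 and TAIR10 and give no role for them, and the strand setting was not given in the sources used here. Lengths were multiples of 3 in 93.36% of models, which are then mostly coding sequence, and reads of untranslated regions mostly go uncounted. 

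Expected counts were summed per locus and rounded. The test was that of edgeR 4.0.16 under R 4.3.3 (filterByExpr at a count of 10 and a total of 15, TMM factors, robust quasi-likelihood F test, Benjamini-Hochberg adjustment over all genes tested, threshold 0.05, two-sided). DESeq2 1.42.0 and limma 3.58.1 were alternatives, beside other scalings, no filter, the first model alone, a replicate block and each library left out. CPM is scaled by TMM factors. SE and 95% intervals come from the F statistic. The test was tried on simulated counts. Positions and upstream windows come from the RefSeq annotation and genome of TAIR10.1. Its name differs from the build of the labels, and the deposited tables hold no coordinates. Of 26712 shared coding loci, 97.36% had a matching coding length.

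The members, lists and tests were chosen with earlier results of these data known. All 10 members are named, then bHLH101, MYB72, the IVc factors, bHLH121, BTSL1, BTSL2, the IMA peptides, FER1, OPT3, FRO3, NAS4, IRT2 and AHA2. Other genes, apart from markers, are marked where they are named. The genes closest in pattern were to be named for IRT1 and the Ib factors, but none of these passed the filter.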

Additional observations from a re-analysis of the deposited data

How the results depend on the processing

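Under all 14 alternatives 0 iron members were called higher and 0 lower, and the median log2 fold change of those tested moved by less than 0.146, the spread between replicates. BTS stayed negative, from -0.46 to -0.29, with adjusted p from 0.380 to 0.968. NAS2 and FRO2 stayed positive, from 0.33 to 0.94 and from 0.27 to 1.24, FRO2 in the 12 alternatives that kept it. With 1 library left out, PYE ran from -0.487 to 0.177, and was positive only without Col-0 replicate 2. Among these fits FIT was lowest, at -0.042, with Col-0 replicate 2 omitted and highest, at 0.162, with Col-0 replicate 4 omitted, and was at -0.003 without smr1 replicate 4. It was at 0.19 without smr1 replicates 1 and 2 together. Over all genes, 1 was called higher and 0 lower. The higher count was 3 without the filter, 30 by DESeq2 with 12 lower, and 0 by limma voom. It was 0 without any one library (range 0 to 0), and 0 without smr1 replicates 1 and 2 together, an alternative chosen after seeing the data. The cause was not tested.

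With the replicate number as a block, 2 genes were called higher and BTS was at -0.36 (adjusted p = 0.380). The labels do not say that a number marks a shared batch. Deviations from the group means correlated at 0.397 between the libraries numbered 2 and at 0.185 between those numbered 4, across 20151 genes that are not independent. The value was 0.171 between smr1 replicate 1 and Col-0 replicate 4, which share no number, and the deviations of 2 Col-0 libraries mirror each other. FER1 had a log2 fold change of -0.49 (SE 0.131) with the block (edgeR adjusted p = 0.334) and -0.55 (SE 0.423) without it. FER3 had -0.39 (SE 0.12) with the block (edgeR adjusted p = 0.357) and -0.41 (SE 0.365) without it. Depth limits FRO2, NAS1, bHLH38 and bHLH39, which had at most 15 reads in any library.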
